A study of Mus musculus with 12 samples.

Results

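Genes of gap junctions and tight junctions were followed in flow-sorted support cells from gonads of mouse embryos. The members were taken by gene symbol alone, without regard to their signal. They are the connexins and pannexins, which form channels, the claudins, other membrane proteins and the cytoplasmic proteins Tjp1, Tjp3, Cgn and Cgnl1. The other membrane proteins, grouped with tight junctions here, are occludin, the MARVEL proteins and the junctional adhesion molecules F11r, Jam2 and Jam3. In all 92 probe sets of 52 genes were found among the 44238 probe sets tested, of which 34328 named 1 gene (17996 genes). They comprised 24 probe sets of 14 connexins, 5 of 3 pannexins, 35 of 24 claudins, 19 of 7 other membrane proteins and 9 of 4 cytoplasmic proteins. No filter on low signal was applied, so all 92 entered every test, and any junction gene outside the 52 was not analysed here.

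The cells came from embryos of an FVB.Cg strain in which all groups carried the transgenes Tg(Tyr)3412ARpw and Tg(Sry-EGFP)92EI, the second an EGFP reporter driven by Sry sequences, and were isolated by flow cytometry from gonads that the labels call ovary (XX) or testis (XY). There were 4 groups of 3 pools each, XX and XY at embryonic day 11.5 (E11.5) and XX and XY at E12.5, hybridised to 1 Affymetrix mouse array per pool. Whether the pools stem from separate litters is not in the labels; p-values therefore reflect only how much these pools varied, which may in part be technical. Values are taken as log2 signals, array medians lay between 6.494 and 6.592, and a probe set was called where limma gave a Benjamini-Hochberg adjusted p under 0.05 over all 44238.

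Each gap junction channel is built from connexins of both neighbouring cells and passes ions and small metabolites between them. Tight junctions seal the space between epithelial cells: claudins and occludin form the strands, junctional adhesion molecules lie beside them, and ZO proteins (Tjp genes) and cingulin link the strands to actin. In the postnatal testis Sertoli cells form the blood-testis barrier with Cldn11, and granulosa cells of the ovary are coupled to each other mainly by Gja1 (Cx43). At the stages studied the XY cells are becoming Sertoli cells and the XX cells pregranulosa cells.

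The labelled identity was read from markers first. All 5 Sertoli markers were called higher and all 5 pregranulosa markers lower in XY at E12.5, and the gonadal transcription factor genes Wt1, Nr5a1 and Gata4 had group means between 9.16 and 12.55. One pool was unlike the others, pool 2 of XX E11.5. The mean of 16 endothelial markers lay 1.61 log2 units above its 12-array mean in that pool and between -0.43 and 0.22 in the other 11, and that of 7 interstitial mesenchyme markers lay 1.82 above. That of Wt1, Nr5a1 and Gata4 lay at -0.93 there and between -0.21 and 0.75 in the other 11. The pregranulosa mean lay at -0.67, against 0.28 and 0.73 in the other XX E11.5 pools. That of 15 macrophage and leukocyte markers lay at 0.99. Signal of a probe set in the absence of its target was gauged from 5 Y-linked probe sets that were higher in every XY array than in any XX array, and which read 3.33 to 5.17 in XX arrays. Of the 92 junction probe sets 16 lay at or under 5.17 on all 12 arrays, and these included every probe set of 7 genes. Folds against a group mean within that range are minimum values, written as at least. The range rests on only 5 probe sets, so a reading above 5.17 may also be background. Other folds may then be too small. In pooled cells, fewer cells of a type and less RNA per cell cannot be told apart.

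Junction genes parted between the sexes at E12.5 at a small number of members. Called were 9 of the 92 probe sets (9.78%, against 7.72% of all probe sets), 6 higher and 3 lower in XY, from 7 genes. Higher in XY were Gjb2, Jam2, Cldn23 and Cldn12, and lower were Gjb5, Cgn and Marveld1. Background rates were 3.92% higher and 3.81% lower, so the share of members called was near that of the array. The median difference was 0.02 over the members and 0.00 over all probe sets. At E11.5 limma called 0 of the 92, against 0.0678% of all probe sets (0.0543% higher and 0.0136% lower), and 5 had an unadjusted p under 0.05. The share of all probe sets under that unadjusted limit is not given here, so those 5 are not read as a result. The count of 9 was 5 without XY E12.5 pool 3.

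**Figure D1:**
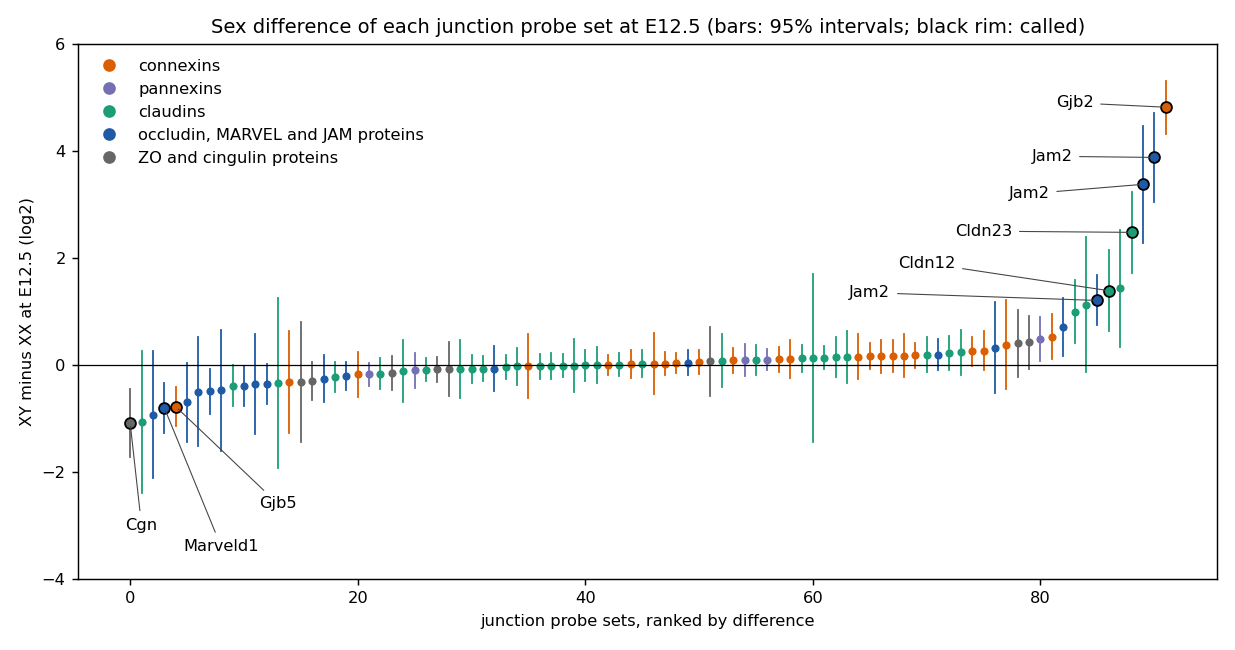
The difference XY minus XX at E12.5 (log2, vertical axis) of each of the 92 junction probe sets, ranked along the horizontal axis and coloured by family. Bars are 95% intervals from limma and black rims mark the 9 called probe sets; most points lie near 0, and Gjb2, with 4.82, and Jam2, with 3.88 and 3.38, lie farthest from it.

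Promoter sequences were taken from RefSeq (GRCm38.p6), as windows from 250 bases before to 50 after the annotated start, for 7 of the 9 called genes. They are printed for Gjb2 and Cldn11, which rose in XY, for Gjb5, which was higher in XX, and for F11r, which fell in XY, to show the sequence from which these transcripts are annotated to start. Each is given 5′ to 3′ on the strand of its gene, and capitals mark matches, on either strand, to 4 short motifs that do not overlap here. Of all 32851 windows of this length, 31.0% held the SOX factor motif ACAAT, 4.72% the NR5A1 motif AAGGTCA, 11.2% the motif AGATAA of GATA factors and 35.7% the GC box, GGGCGG.

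Gjb2, chr14:57104653-57104952, minus strand: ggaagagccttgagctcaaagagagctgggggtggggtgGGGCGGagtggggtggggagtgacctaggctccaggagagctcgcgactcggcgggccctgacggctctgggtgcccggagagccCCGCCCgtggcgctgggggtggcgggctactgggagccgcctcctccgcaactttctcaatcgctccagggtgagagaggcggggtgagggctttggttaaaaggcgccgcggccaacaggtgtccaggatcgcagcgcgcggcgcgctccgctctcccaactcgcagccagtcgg

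Cldn11, chr3:31149670-31149969, plus strand: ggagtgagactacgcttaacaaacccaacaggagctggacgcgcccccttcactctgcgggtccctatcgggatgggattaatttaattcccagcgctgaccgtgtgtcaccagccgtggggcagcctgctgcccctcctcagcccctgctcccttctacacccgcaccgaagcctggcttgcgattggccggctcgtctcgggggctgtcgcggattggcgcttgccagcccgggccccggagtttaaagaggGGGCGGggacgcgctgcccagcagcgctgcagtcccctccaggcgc

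Gjb5, chr4:127358115-127358414, minus strand: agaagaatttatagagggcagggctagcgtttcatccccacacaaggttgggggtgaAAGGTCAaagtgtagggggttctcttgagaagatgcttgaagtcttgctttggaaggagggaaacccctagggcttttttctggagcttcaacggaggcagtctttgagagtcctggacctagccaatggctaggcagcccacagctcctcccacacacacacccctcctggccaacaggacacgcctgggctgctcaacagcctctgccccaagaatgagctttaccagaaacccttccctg

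F11r, chr1:171437311-171437610, plus strand: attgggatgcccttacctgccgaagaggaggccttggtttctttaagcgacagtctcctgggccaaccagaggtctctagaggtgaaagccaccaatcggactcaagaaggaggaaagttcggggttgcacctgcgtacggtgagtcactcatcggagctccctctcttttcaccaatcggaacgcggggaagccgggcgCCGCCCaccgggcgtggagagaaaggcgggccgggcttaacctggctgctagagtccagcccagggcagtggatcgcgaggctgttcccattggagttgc

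The Gjb2 window held the GC box at positions -211 and -126 from the start, the Cldn11 window at position 5 and the F11r window at -50. The Gjb5 window held AAGGTCA at -193. No match to ACAAT or AGATAA was found in these 4 windows. The Cgn window held the GC box at 6 positions. A match describes the letters and was not tested for binding.

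Gjb2 (Cx26), a gap junction subunit best known from the inner ear, had the largest difference among the members. It has 1 probe set. In XX it read 6.28, 6.60 and 6.58 in the E11.5 pools and 6.89, 6.35 and 6.33 in the E12.5 pools. The XY pools of E11.5 gave 7.31, 7.61 and 6.80, and those of E12.5 gave 11.27, 11.55 and 11.21. The XY E12.5 pools thus stood far above all 9 others, and the XY E11.5 pools lay above the XX E11.5 pools without overlap. At E12.5 the signal was 28.2-fold higher in XY (95% interval from limma, given after each fold, 20.0 to 39.8; adjusted p = 3.5e-06). Within XY it rose 17.2-fold between the days (12.2 to 24.3; adjusted p = 9.9e-06). The difference at E11.5 was 0.75 ± 0.22 (SE) and was not called (adjusted p = 0.51). In XX the change between days was 0.03 ± 0.22 (adjusted p = 0.95). Both calls of Gjb2 held without any 1 of the 12 arrays.

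Gjb5, a connexin best known from skin and placenta, ran the other way. Its probe set read 6.33, 6.10 and 6.05 in XX at E12.5, while XY of that day gave 5.54, 5.24 and 5.36. At E11.5 it read 5.73, 5.13 and 5.44 in XX and 5.67, 5.43 and 5.48 in XY. The 3 XX E12.5 pools lay above the other 9. Its signal was 1.72-fold lower in XY at E12.5 (1.34 to 2.20; adjusted p = 0.016) and rose 1.65-fold in XX between the days (1.29 to 2.12; adjusted p = 0.044). At E12.5 the call did not outlast the removal of pool 1 of XX or of pool 2 or 3 of XY from that day. When each of the 12 arrays was left out in turn, the rise in XX kept its call only with pool 1 of XX or pool 1 of XY of E11.5 removed. It was the single junction probe set called between days in XX (1 of 92, or 1.09%, against 3.11% of all probe sets, 1.69% higher).

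**Figure D2:**
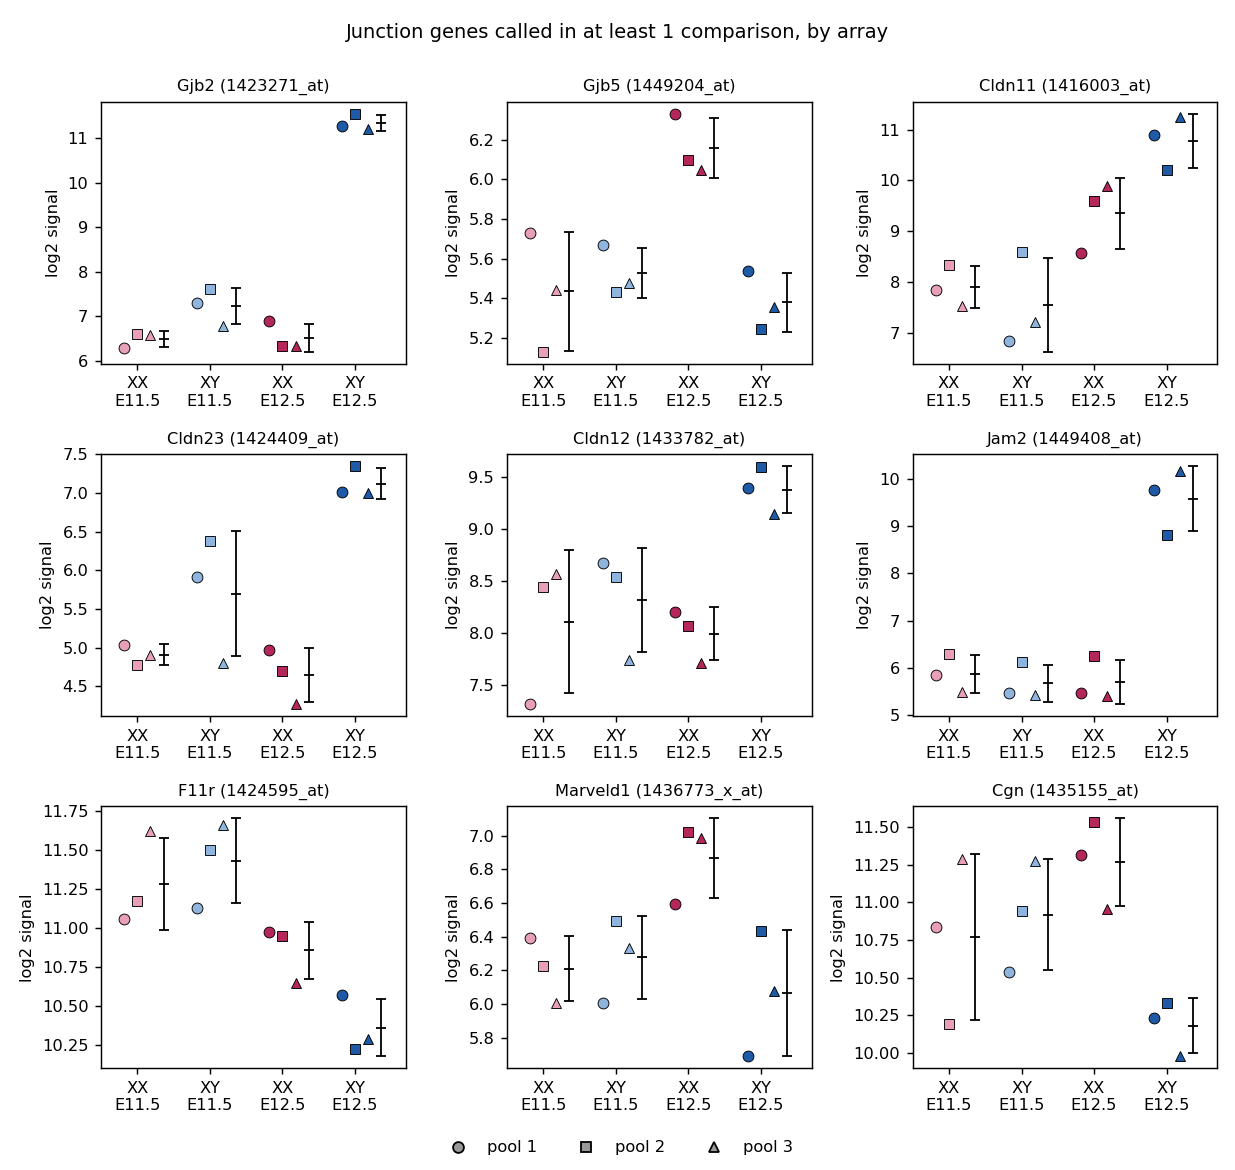
The log2 signal (vertical axis) of the 9 junction genes called in at least 1 comparison, at the called probe set of smallest adjusted p, in the 3 pools of each group (horizontal axis; symbols mark the pool number, bars the mean and SD, n = 3). Gjb2, Jam2 and Cldn23 are high in the XY E12.5 pools, Gjb5 in the XX E12.5 pools, and F11r is lowest in the XY E12.5 pools.

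The other 12 connexins were not called in any comparison, and 17 of their 22 probe sets varied by less than 1 log2 unit over the 12 arrays. Some of these lay at background, such as Gje1 and Gja5, with means of 3.26 and 4.93 over the arrays. The share of all probe sets that varied so little is not given here, so the 17 are not read as a result. Gja1 was bright in every group. Its brightest probe set read 13.35 ± 0.12 in XX at E11.5 and 13.39 ± 0.08 in XY of that day (SD, n = 3), then 13.45 ± 0.03 and 13.50 ± 0.08 one day later. The sex difference at E12.5 was 0.06 ± 0.10 (SE; adjusted p = 0.85) and lay between -0.02 and 0.26 at its 6 probe sets. Its 2 dimmest probe sets, with group means from 7.32 to 8.79, were not called either. Gjc1, which is expressed in the early heart and vessels, read 11.33 ± 0.60 in XX and 11.25 ± 0.28 in XY of E11.5, then 10.67 ± 0.51 in XX and 11.05 ± 0.57 in XY of E12.5. Gjd2, the main connexin of neurons, read 6.24 to 6.40 in the group means of its brighter probe set.

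Gjb2 lies between Gja3 and Gjb6 on mouse chromosome 14, with no other protein-coding gene between them in the RefSeq annotation of GRCm38.p6. These neighbours were looked at after the values of Gjb2 had been seen. Gjb6, which pairs with Gjb2 in cochlear gap junctions, read 4.65, 4.49 and 4.61 in XX at E12.5, while XY of that day gave 4.72 to 5.60. The groups did not overlap, and the difference of 0.53 ± 0.19 was not called (adjusted p = 0.14). The XX mean of 4.58 lay within the background range, and only the XY pool with 5.60 read above 5.17. The values therefore give no size of the difference. Gja3 differed by 0.17 ± 0.18 and 0.12 ± 0.16 at its 2 probe sets. On chromosome 4, Gjb5 and the nearest measured connexin, Gja4, lie with 2 protein-coding genes between them.

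Claudins were called in 2 of 35 probe sets at E12.5 between the sexes and in 2 of 35 between days in XY, 3 genes in all. Each count is 5.71% of the claudin probe sets, against 7.72% and 6.16% of all probe sets. Cldn11, the strand protein of oligodendrocyte myelin and of the Sertoli cell barrier, read 6.84, 8.59 and 7.21 in XY at E11.5 and 10.89, 10.20 and 11.25 in XY at E12.5. The XX pools gave 7.85, 8.34 and 7.52 on the earlier day and 8.57, 9.60 and 9.89 on the later. Both sexes were without overlap between the days, and the XY pools of E12.5 were above the XX pools. The rise in XY was 9.42-fold (4.42 to 20.1; adjusted p = 0.0046) and kept its call without any 1 of the 12 arrays. In XX the change was 1.45 ± 0.49 and was not called (adjusted p = 0.12). Neither the sex difference at E12.5 (1.43 ± 0.49; adjusted p = 0.12) nor the difference between the changes of the sexes (1.79 ± 0.69; adjusted p = 0.26) was called.

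Cldn23, a little-studied claudin of epithelia, read 7.01, 7.35 and 7.003 in XY at E12.5 and 4.97, 4.69 and 4.27 in XX at E12.5. At E11.5 it read 5.91, 6.39 and 4.80 in XY and 5.04, 4.77 and 4.91 in XX. XY pool 3 of E11.5 therefore lay within the XX range while pools 1 and 2 lay above it. In the same 3 pools the mean of 5 Sertoli markers lay 1.24, 0.54 and 0.11 above its 12-array mean, and the relation between them was not tested. The later XY pools exceeded the later XX pools by at least 5.57-fold (adjusted p = 0.0018). The rise in XY was 2.68-fold (1.58 to 4.54; adjusted p = 0.038). That rise lost its call when any 1 of the 3 later XY pools, pool 1 or 3 of XY at E11.5, pool 1 of XX at E11.5 or pool 2 of XX at E12.5 was left out; the difference at E12.5 kept its call in all 12 such fits.

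Cldn12, which lacks the PDZ-binding tail of most claudins, has 2 probe sets. At E12.5 the called one read 8.20, 8.07 and 7.71 in the XX pools against 9.40, 9.60 and 9.15 in the XY pools, without overlap. At E11.5 its XX pools gave 7.32, 8.44 and 8.57 and its XY pools 8.67, 8.54 and 7.75, which overlapped. The signal was 2.61-fold higher in XY (1.54 to 4.43; adjusted p = 0.035). Its brighter probe set had means of 11.72 (XX) and 11.66 (XY) on the earlier day and of 11.14 and 12.13 on the later. It differed by 1.00 ± 0.27 in the same direction, with an adjusted p of 0.0502, and its groups at E12.5 did not overlap. The call ended without any 1 of the 6 E12.5 arrays.

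The other 21 claudins were not called in any comparison, and 25 of their 31 probe sets varied by less than 1 log2 unit. For claudins too, the share of all probe sets that varied so little is not given here. Cldn3, an epithelial barrier claudin, had group means of 6.79 to 7.29 at its brightest probe set. Cldn34c1 had no called difference and a wide spread, from 6.31 to 8.99 at its brighter probe set. One probe set of Cldn9 read 7.54 in XY E12.5 pool 3 and 4.39 to 5.47 in the other 11 arrays, whereas its second probe set read 5.28 to 5.95; this gene was chosen after its values were seen. The 6 X-linked members, Gjb1, Cldn2 and 4 genes of the Cldn34 group, were not among the called genes.

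Cldn5, the main claudin of endothelial cells, read 9.76 in XX E11.5 pool 2, the pool with high endothelial markers, and 6.38 to 8.04 in the other 11 pools. The difference XY minus XX at E11.5 was -1.02 with means of 7.88 ± 1.65 and 6.86 ± 0.02 (SD, n = 3; limma, adjusted p = 0.79). Gja4, a connexin of arteries, read 7.13 in that pool and 5.70 and 5.35 in the other XX E11.5 pools. It read 6.07, 6.85 and 7.18 in XX E12.5, so 1 of these 3 pools reached the value of that pool. Gja5, also arterial, read 4.80 to 5.05 on all arrays. Gja4 and Gja5 were chosen as vascular connexins after their values were seen, and the part of endothelial cells in these values was not tested.

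**Figure D3:**
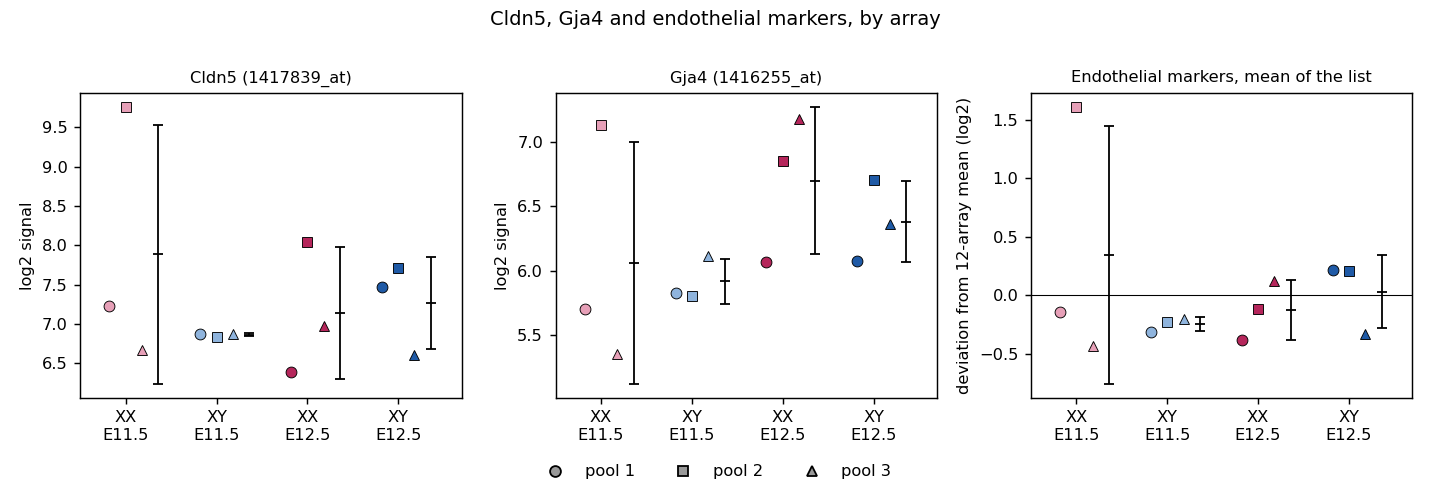
The log2 signals of Cldn5 and Gja4 (left and middle) and the mean deviation of 16 endothelial markers from their 12-array means (right, log2) in the 3 pools of each group; bars are the mean and SD, n = 3. XX E11.5 pool 2 is the highest for Cldn5, with 9.76, and for the marker list, with 1.61, but not for Gja4.

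Jam2 (JAM-B), a junctional adhesion molecule found on Sertoli cells, where it binds Jam3 of germ cells, was the member with the most called probe sets. The brightest of those read 9.76, 8.82 and 10.17 in XY at E12.5. It read 5.46, 6.24 and 5.40 in XX at E12.5, 5.85, 6.30 and 5.49 in XX at E11.5 and 5.47, 6.12 and 5.43 in XY at E11.5. The 3 XY E12.5 pools stood apart from all others, while the other 9 overlapped. At E12.5 the signal was 14.7-fold higher in XY (8.28 to 26.1; adjusted p = 0.00019). It rose 15.0-fold in XY between days (8.44 to 26.6; adjusted p = 0.00031). In XX the change was -0.18 ± 0.37. Both calls held without any 1 of the 12 arrays, here and at the other called probe sets of Jam2.

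The 5 probe sets of Jam2 did not give the same picture. The second called one read 9.01, 7.65 and 9.09 in XY E12.5 and 5.01, 5.42 and 5.20 in XX E12.5, which is 10.4-fold (4.88 to 22.1; adjusted p = 0.0023). The third was dimmer, with means of 4.38 ± 0.11 and 5.58 ± 0.49 (SD, n = 3), and was at least 2.30-fold higher (adjusted p = 0.0065). The fourth was at least 0.71 ± 0.24 higher, against an XX mean of 4.92 within the background range, and short of a call (adjusted p = 0.12). The fifth, which had the highest mean over the 12 arrays, differed by 0.19 ± 0.13 (adjusted p = 0.50) and read 6.53 to 7.08 throughout. Of 9 germ cell markers limma called 0 between the sexes at E12.5. The partner gene Jam3 differed by 0.32 ± 0.38 at its brighter probe set (adjusted p = 0.75).

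**Figure D4:**
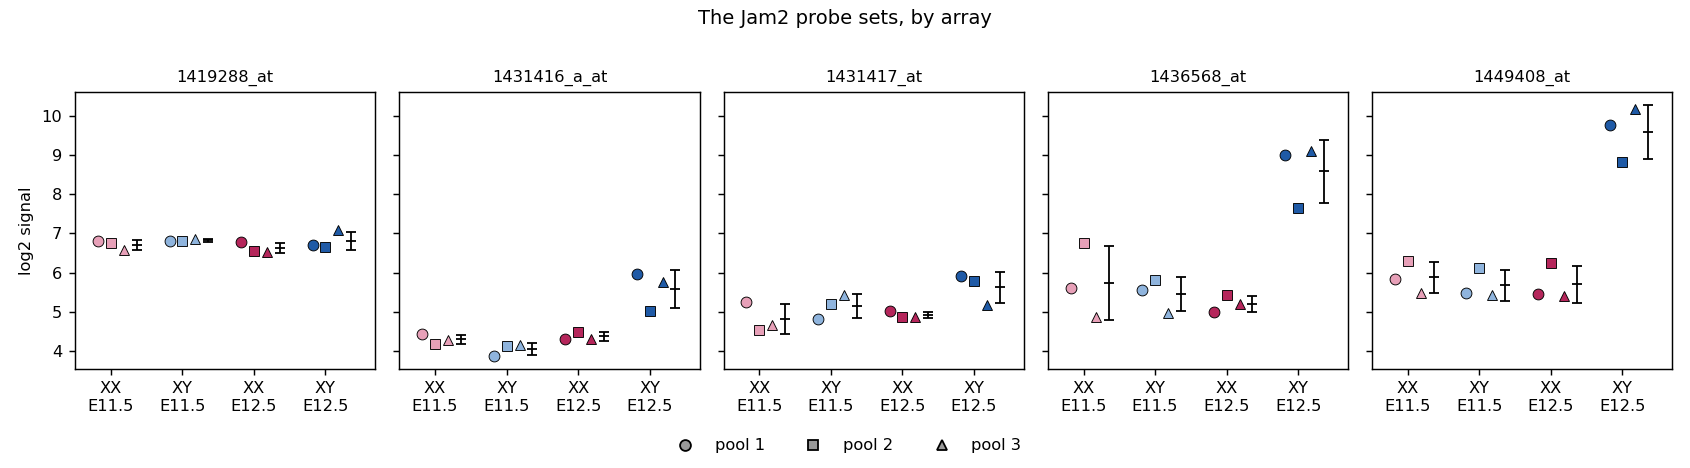
The log2 signal (shared vertical axis) of each of the 5 Jam2 probe sets in the 3 pools of each group; bars are the mean and SD, n = 3. The XY E12.5 pools stand above all others at 3 probe sets, and the leftmost, with 6.53 to 7.08, is level over the groups.

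F11r (JAM-A), the adhesion molecule of most epithelia, held the 1 junction probe set called lower at the later day in XY. It read 11.13, 11.50 and 11.66 in XY at E11.5 but 10.57, 10.22 and 10.29 a day later, a fall of 2.10-fold (1.57 to 2.82; adjusted p = 0.010), and kept its call without any 1 of the 12 arrays. The XX pools gave 11.05, 11.17 and 11.62 on the earlier day and 10.97, 10.95 and 10.65 on the later, where the difference of -0.43 ± 0.19 was not called (adjusted p = 0.22). The difference between these changes was -0.65 ± 0.27 (adjusted p = 0.30). Its second probe set changed by -0.41 ± 0.17 in XY and was not called (adjusted p = 0.20).

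Cgn (cingulin), which ties tight junctions to actin and myosin, read 11.31, 11.53 and 10.96 in the later XX pools against 10.23, 10.33 and 9.98 in the later XY pools. At E11.5 the groups overlapped, with 10.84, 10.19 and 11.29 in XX beside 10.54, 10.94 and 11.27 in XY. At E12.5 its signal was 2.12-fold lower in XY (1.38 to 3.28; adjusted p = 0.044), without overlap. It was no longer called when any 1 of the 6 E12.5 arrays, pool 1 of XX or pool 2 of XY of E11.5 was left out. The second Cgn probe set differed by -0.31 ± 0.50. Marveld1, a MARVEL domain protein, read 6.59, 7.02 and 6.98 in XX against 5.69, 6.43 and 6.08 in XY at 1 of its 4 probe sets at E12.5. This was 1.74-fold lower in XY (1.26 to 2.41, limma adjusted p = 0.047). Its values at E11.5 were 6.39, 6.23 and 6.01 in XX beside 6.01, 6.49 and 6.33 in XY. The brightest of its other probe sets had means of 10.44 (XX) and 10.27 (XY) on the earlier day and of 10.74 and 10.04 on the later, and differed by -0.70 ± 0.33 (adjusted p = 0.28). The call held when pool 1 of XY at E11.5, or pool 1 of XX or pool 2 of XY at E12.5, was left out, and ended with each of the other 9 arrays.

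The remaining tight junction genes were not called. Marveld2 (tricellulin), the protein of corners where 3 cells meet, read 8.07 ± 0.61 (XX) and 7.47 ± 1.14 (XY) on the earlier day. On the later day it read 9.18 ± 0.43 and 8.25 ± 0.51 (SD, n = 3; difference -0.93 ± 0.53, SE; limma, adjusted p = 0.39). Ocln (occludin) had group means of 5.69 to 5.99 at its brighter probe set and differed by -0.07 ± 0.19 at E12.5. Marveld3, also a tight junction protein, had means of 6.35 to 6.85 at its brightest probe set, and Jam3 of 8.38 to 8.78. Tjp1 (ZO-1), the main scaffold of tight junctions, read 11.53 ± 0.46 in XX and 11.17 ± 0.42 in XY of E11.5, then 11.10 ± 0.18 in XX and 11.50 ± 0.38 in XY of E12.5. Its sex difference at E12.5 was 0.40 ± 0.28 (adjusted p = 0.51). Cgnl1 (paracingulin) differed by 0.42 ± 0.22 at its brightest probe set with means of 10.34 to 10.89 (adjusted p = 0.34). Tjp3 (ZO-3), another scaffold, differed by 0.06 with means of 6.12 to 6.27. Panx1, which forms channels that release ATP, read 9.48 (XX) and 9.64 (XY) on average at E11.5, then 9.44 ± 0.14 and 9.93 ± 0.25 (0.49 ± 0.19; adjusted p = 0.17), and the group means of Panx2 and Panx3 lay between 3.92 and 5.75.

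Between days, XY cells had 7 of 92 junction probe sets called (7.61%, against 6.16% of all probe sets), 6 higher and 1 lower at E12.5, against background rates of 3.18% and 2.98%. They belonged to Gjb2, Jam2, Cldn11, Cldn23 and F11r. Over the 5 comparisons 9 of the 52 genes had a called probe set (17.3%, against 20.4% of all 17996 genes). Of the 73 probe sets of the other 43 genes, 54 varied by less than 1 log2 unit over the 12 arrays and 7 by at least 2. Such shares over all probe sets are not given here, so these counts are not read as a trait of junction genes. The median change of the members was 0.06 in XY and 0.11 in XX, beside 0.02 and 0.06 over all probe sets. The comparison of days in XY and that of sexes at E12.5 share the 3 XY E12.5 arrays, so their calls are not independent of each other. The change between days differed between the sexes at 4 of 92 probe sets (4.35%, against 1.75% of all probe sets), all toward XY (background 0.796%), which were those of Gjb2 and 3 of Jam2. With the pool number as a block, 3 were called: Gjb2 and 1 of Jam2 toward XY, and Gjb5 toward XX (-0.87; adjusted p = 0.042). In the main fit, which had no block, the count of 4 fell to 2 without any 1 of 7 arrays. The 2 probe sets that kept their call without each of the 12 were Gjb2 and the brightest of the called Jam2 probe sets. Of the 2 others, both of Jam2, the brighter kept its call in 5 of the 12 fits and the dim one in 1.

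**Figure D5:**
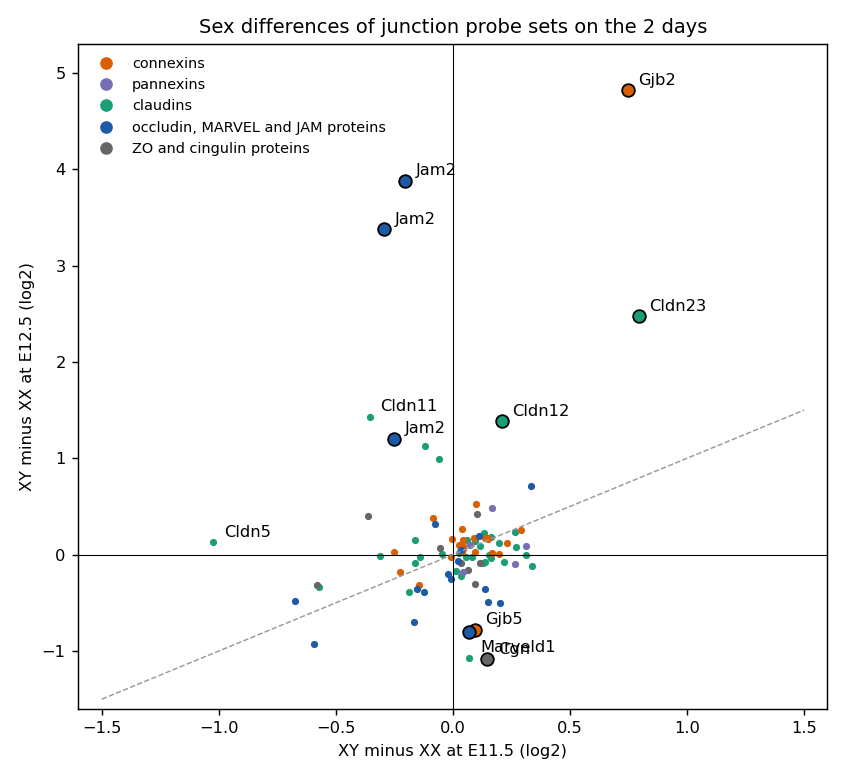
The difference XY minus XX of each junction probe set at E11.5 (horizontal axis, log2) against that at E12.5 (vertical axis, log2), from separate arrays; colours are families, black rims mark probe sets called at E12.5 and the dashed line is equality. Gjb2, Jam2 and Cldn23 lie far above the line, while Cldn5, with -1.02 at E11.5, lies at 0.13 at E12.5.

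Markers of other cells were read beside these results at E12.5. The mean of 15 macrophage and leukocyte markers lay between -0.17 and -0.07 log2 units from its 12-array mean in the XX pools and between 0.38 and 0.69 in the XY pools, with 1 of 15 called higher. The mean of 10 mesonephric and epithelial markers lay between 0.12 and 0.64 in XX and between -0.20 and 0.17 in XY, with 1 of 10 called lower. The mean of 7 erythroid markers lay between -0.16 and 0.04 in XX and between 0.12 and 0.33 in XY, with 1 of 7 called higher. The macrophage list was thus higher in XY (median difference 0.41), the direction of Gjb2, Jam2, Cldn23 and Cldn12. The median difference of the erythroid list was only 0.05, and its called gene was Klf1, 2.68-fold higher. That of the epithelial list was -0.39, the direction of Gjb5, Cgn and Marveld1, but its pools overlapped between the sexes. The part of these lists in the junction results was not tested. Between days in XY the macrophage list went from between -1.14 and -0.50 to between 0.38 and 0.69, with 3 of 15 called higher. Over the same days in XY, 1 of 7 mesenchyme markers (Nr2f2, 4.61-fold) and 1 of 4 steroidogenic markers (Cyp11a1, 16.1-fold) were called lower. Called higher was 1 of 10 epithelial markers (Krt18, 2.24-fold). These genes were also called in XX in the same directions, Nr2f2 at 3.23-fold, Cyp11a1 at 5.88-fold and Krt18 at 3.69-fold. Their part in the junction results was not tested. Endothelial markers (0 of 16 called) lay between -0.39 and 0.12 in XX and between -0.33 and 0.22 in XY.

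Genes that work beside these junctions, in cell polarity, adherens junctions and lateral membranes, were counted from a list of 44, of which 39 were measured, at the brightest probe set of each. At E12.5, 4 were higher (10.3%) and 2 lower (5.13%) in XY, against 5.59% and 5.52% of all 17996 genes at their brightest probe set. Between days in XY 1 rose (2.56%) and 4 fell (10.3%), against 4.47% and 2.54% of all genes. Pard3b, a polarity scaffold, was 4.54-fold higher at E12.5 (limma, adjusted p = 0.018), and Pard6b, another polarity gene, 2.46-fold (adjusted p = 0.017). The others higher in XY were Lsr (1.73-fold), which recruits tricellulin, and Amotl2 (1.94-fold). Magi1, a scaffold of tight and adherens junctions, was 5.06-fold lower (adjusted p = 0.0019), and the ubiquitin ligase gene Nedd4 1.51-fold. In XX 0 of 39 were called between days, and at E11.5 0 between sexes. The median difference of the list at E12.5 was -0.03, beside 0.00 over all probe sets.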

How the data were processed

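Total RNA of 12 pools was amplified in 2 rounds and labelled with biotin, per the labels' protocols, and hybridised to Affymetrix mouse arrays. The authors deposited a value on a log scale, treated here as log2, for each probe set on each array. How background was corrected, how arrays were normalized and the log base: not given in the sources used here. Base 2 was assumed from the largest value, 14.45, and every fold rests on it. Amplification can make probe sets of 1 gene differ. Of 45037 probe sets 798 had no value at all and 1 had gaps, leaving 44238 to test. Symbols came from the platform table and were updated by Entrez identifier through RefSeq (34126 matched); 850 probe sets held several symbols and 9060 none.

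The 4 group means were estimated from all 12 arrays together by limma 3.58.1, R 4.3.3 (lmFit, eBayes; 8 residual and 2.11 prior degrees of freedom), two-sided, Benjamini-Hochberg adjusted over 44238. All p-values are from limma. The fit was also run on simulated data with independent normal noise and no deviating pool, so that run does not test the calls made here. Folds are 2 raised to the log2 difference. The number of arrays limits the precision.

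The members, the lists and the naming rule were chosen with earlier results of these data known. Named were genes called in any of the 5 comparisons, the 3 brightest uncalled genes of each family, and Gja1, Gjb2, Cldn11, Cldn5, Tjp1 and Ocln. Alternatives were quantile normalization, a filter to brighter probe sets, the pool number as a block, the compared arrays alone, array quality weights, a variance prior that follows the mean, 1 probe set per gene, and leaving out each array. By sex at E12.5, 0 of 4 steroidogenic and 1 of 7 mesenchyme markers (Pdgfra, higher in XY) were called.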

Additional observations from a re-analysis of the deposited data

Results flagged for a closer look

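The change from E11.5 to E12.5 differed between XY and XX, by limma's test of the difference itself, at 4 junction probe sets. That is 4.35% of the 92, against 1.75% of all probe sets. The difference was 4.07 log2 units for Gjb2 (95% interval 3.37 to 4.77; adjusted p = 0.00036). For Jam2 it was 4.08 (2.91 to 5.26; adjusted p = 0.0043) and 3.67 (2.13 to 5.21; adjusted p = 0.029) at 2 of its 5 probe sets. The one with 3.67 kept its call in 5 of the 12 fits that left out 1 array, and lost it with the pool number as a block. At another, dim probe set the fitted value was 1.46 (adjusted p = 0.040), but the means of both XX groups and of XY at E11.5 lay within the background range, so it gives no size of the difference. This dim probe set kept its call in only 1 of those 12 fits, and lost it with the block. The remaining Jam2 probe sets gave 0.38 ± 0.34 and 0.08 ± 0.19 (SE) and were not called. At the one with 0.38 the means of both XX groups (4.82 and 4.92) and of XY at E11.5 (5.16) also lay within the background range. That value gives no size either.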

How the results depend on the processing

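Counts of called junction probe sets were 0 and 9 between the sexes at E11.5 and E12.5, 1 and 7 between days within XX and within XY, and 4 for the difference between the day changes. Shares over all probe sets were given above for these counts only, not for the alternative fits below. Leaving out each array in turn gave, in the same order, 0 to 0, 5 to 10, 0 to 1, 6 to 7 and 2 to 4. With the brighter probe sets alone, which left 33 of the 92, the counts from sex at E12.5 on were 5, 0, 4 and 2. That filter used the mean over all 12 arrays, and the share of all probe sets called under it is not given here. The brightest called Jam2 probe set passed it through XY at E12.5 (mean 9.58, against 5.68 to 5.88 in the other groups). Its calls there are therefore no further evidence. With 1 probe set per gene, which left 52, sex at E12.5 gave 5, day in XY 4 and the difference between day changes 1. In the main fit, 5.59% of all 17996 genes were higher and 5.52% lower by sex at E12.5 at their brightest probe set. By day in XY these shares were 4.47% and 2.54%, and for the difference between day changes 1.28% and 1.54%. With the compared arrays alone day in XX gave 0. Quantile normalization, array quality weights and a variance prior that follows the mean left each count within 1.5 times. With the pool number as a replicate block the counts were 0, 8, 1, 7 and 3. The numbers were not taken as pairs, since deviations of same-numbered pools correlated above 0.1 in 4 of 18 pairs (-0.40 to 0.24) and 6 of 12 arrays correlated best with their own number. Over all alternatives no named difference reversed; 304 kept their call and 69 lost it. Outside the arrays left out, calls were lost for Cldn12 and Cgn (sex at E12.5) and for 2 Jam2 probe sets (difference between day changes) with the block, for Marveld1 with quantile normalization and with the compared arrays alone, and for Gjb5 (day in XX) and Cldn23 (day in XY) with the compared arrays alone. The brighter Cldn12 probe set (sex at E12.5) gained a call under 5 alternatives that kept all arrays, and Gjb5 (difference between day changes) with the block. Low signal limits what can be said of the 16 probe sets at or under 5.17. Whether readings above it, such as those of Gjb2 in XX (means 6.49 and 6.52), also were background was not tested.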
